A study of Drosophila melanogaster with 3 samples.

Results

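Binding of dmrt11E, a transcription factor with a DM-type zinc finger domain, was examined at 9 genes that regulate the fly heart, out of 13968 protein-coding genes on the chromosome arms. The genes were taken by name as tin, Doc1, Doc2, Doc3, mid, H15, Hand, svp and tup, and every peak summit inside a gene or within 10 kb of either end was assigned to it. Chromatin immunoprecipitation and sequencing (ChIP-seq) had been done on whole Drosophila melanogaster embryos of both sexes together, aged 2 to 10 h, in 1 group of 3 biological replicates. All 3 came from a transgenic insertion line that stably expressed dmrt11E with a green fluorescent protein (eGFP) at its C-terminus, and an antibody against that tag recovered the chromatin. The promoter that drove the fusion is not named in the labels. They give no other genotype, treatment or tissue, so heart cells were not separated from the rest of the embryo. Peaks had been called by the depositors on each replicate and on the pooled replicates (30000 peaks in each list), and 6706 pooled peaks formed a set that passed an irreproducible discovery rate (IDR) limit. Peaks are described here by their rank on the deposited signal value within a list, where rank 1 is the strongest. Every list was called against the same control, read depth is not given in the sources used here, and no list from an immunoprecipitation without the tag was analysed. Binding by the factor and recovery of open chromatin therefore cannot be told apart. With 1 group, no comparison of conditions was possible, and the values below are descriptions without a test.

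The dorsal vessel, the fly heart, is a tube of contractile cardioblasts flanked by pericardial cells, both of which arise from dorsal mesoderm under the ectodermal signals Dpp and Wingless. The homeobox gene tin, a relative of the vertebrate NK-class cardiac gene, specifies the dorsal mesoderm and then the heart. The T-box genes Doc1, Doc2 and Doc3 (the Dorsocross genes) act in the same field and also in the amnioserosa and dorsal ectoderm. The T-box genes mid and H15, the LIM-homeobox gene tup (islet), the bHLH gene Hand and the nuclear receptor gene svp act in the specification and diversification of heart cells. Most of these genes also act outside the heart: tup, mid and H15 in the nervous system and ectoderm, and svp in neuroblasts and photoreceptors.

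The sequences under the best-ranked IDR summit of each gene, and under 1 further Doc1 summit of rank 1820, are shown. The further Doc1 summit is not a best summit, and stronger peaks are left out. It is the remaining one of the 3 windows in 30 that held GATAAG, so matches are over-represented among those shown. Each runs from 50 bp before to 50 bp after the summit, on the plus strand of the dm6 assembly as held in RefSeq. Capitals mark the GATA-factor hexamer GATAAG on either strand.
tup, upstream, chr2L:18890227-18890327: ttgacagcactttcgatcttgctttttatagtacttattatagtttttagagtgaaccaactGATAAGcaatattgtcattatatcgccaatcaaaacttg
tin, promoter, chr3R:21378703-21378803: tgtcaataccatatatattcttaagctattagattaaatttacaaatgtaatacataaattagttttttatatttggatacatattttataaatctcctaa
mid, downstream, chr2L:5476822-5476922: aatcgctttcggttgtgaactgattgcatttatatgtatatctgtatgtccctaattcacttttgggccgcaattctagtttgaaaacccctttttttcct
Doc2, upstream, chr3L:9023720-9023820: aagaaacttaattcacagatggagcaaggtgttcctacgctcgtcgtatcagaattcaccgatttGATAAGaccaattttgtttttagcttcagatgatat
Doc3 and Doc2, shared, chr3L:9011882-9011982: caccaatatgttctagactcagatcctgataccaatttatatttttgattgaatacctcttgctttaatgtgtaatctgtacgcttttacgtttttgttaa
Doc1, intron, chr3L:9042761-9042861: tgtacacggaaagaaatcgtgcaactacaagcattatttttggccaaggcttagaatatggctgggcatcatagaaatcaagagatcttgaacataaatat
Hand, upstream, chr2L:10299940-10300040: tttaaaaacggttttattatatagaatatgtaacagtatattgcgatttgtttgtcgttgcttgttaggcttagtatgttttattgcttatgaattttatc
H15, downstream, chr2L:5425531-5425631: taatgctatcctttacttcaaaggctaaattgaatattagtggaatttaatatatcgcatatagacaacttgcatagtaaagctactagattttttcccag
svp, upstream, chr3R:12250420-12250520: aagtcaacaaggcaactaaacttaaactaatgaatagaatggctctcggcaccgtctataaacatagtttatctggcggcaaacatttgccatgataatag
Doc1, upstream, chr3L:9034432-9034532: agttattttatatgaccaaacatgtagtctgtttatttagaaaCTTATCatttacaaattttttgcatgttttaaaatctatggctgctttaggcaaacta

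All 9 genes had at least 1 IDR summit within 10 kb. The same was true of 9624 protein-coding genes (68.9%), so the presence of a summit did not set these genes apart. Their best summits ranked 299 at tup, 324 at tin, 550 at mid, 618 at Doc2, 703 at Doc3, 1329 at Doc1, 1571 at Hand, 2226 at H15 and 5362 at svp. The median of the 9 was 703, against 1878 over the 9624 genes. This median is the value of Doc3, from a peak that was also counted for Doc2. A summit as strong as that of tup lay within 10 kb of 7.69% of protein-coding genes, and one as strong as that of tin within 10 kb of 8.40%. The corresponding share was 30.7% for Hand and 63.6% for svp. A larger window holds more summits by its size alone, and the median window was 25972 bp for the heart regulators against 22164.5 bp for all protein-coding genes. A best rank also improves with the number of summits to choose from. The median number of IDR summits was 3 at the heart regulators and 1 over all protein-coding genes. Peak by peak, the 30 IDR peaks of the 9 windows had a median rank of 2550, against 3353.5 for all IDR peaks. Of these 30, 17 ranked 3353 or better. How the summits were assigned moved the median best rank. Within 5 kb it was 1276.5 over 8 genes, against 2231 over protein-coding genes. Limited to the summits for which a heart regulator held the nearest annotated transcription start site (TSS), it was 2522.5, and with protein-coding TSSs alone, an option added after seeing the data, it was 584. Each of these last values rests on 6 genes, since Doc3, Hand and svp had no such summit. Within 5 kb, the best rank moved from 299 to 1224 at tup, from 550 to 5086 at mid and from 2226 to 3716 at H15. It was unchanged at tin, Doc1, Doc2, Doc3 and Hand, and svp had no summit. By nearest TSS of any gene, the best rank was 4490 at tup, 5086 at mid and 3716 at H15, and unchanged at tin, Doc1 and Doc2.

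**Figure D1:**
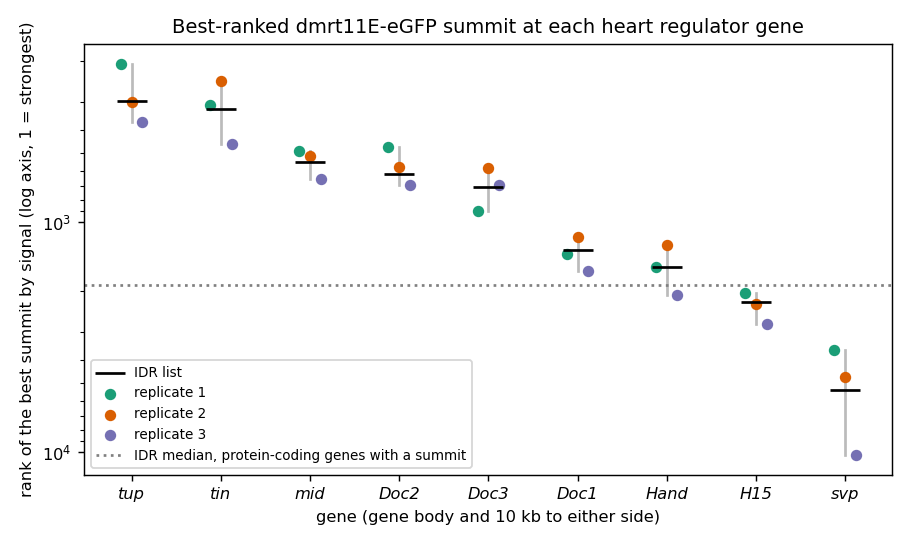
Rank of the best summit within 10 kb of each gene in the IDR list (black bars) and in each replicate list (points, joined by a grey line), on a log axis with the strongest at the top. The dotted line is the IDR median of 1878 over protein-coding genes with a summit, and 7 genes lie above it while H15 and svp lie below. The replicate 3 point of svp, at rank 10324, belongs to another site than the IDR peak. That of Doc2, at rank 694, belongs to the peak shared with Doc3 and not to the best IDR peak of Doc2.

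The 9 genes had between them 30 distinct IDR peaks over 267.51 kb of merged window, or 1.12 peaks per 10 kb, against 0.526 per 10 kb in the windows of all protein-coding genes and 0.488 per 10 kb over the arms. Pooled peaks of any strength were denser by a like amount, at 4.90 per 10 kb in the heart regulator windows against 2.18 over the arms, so the share of pooled summits that belonged to IDR peaks was 22.9% at the heart regulators and 22.4% overall. Their IDR peaks lay 1864.5 bp (median) from the next IDR summit, against 2981 bp for all IDR peaks. The number was uneven: tup had 7, Doc1 had 6, Doc2 had 5, mid, H15 and Hand had 3 each, Doc3 had 2, and tin and svp had 1 each. Only 1.93% of protein-coding genes had as many as tup, and 3.45% as many as Doc1. These shares are not adjusted for window size. The window was 41755 bp at tup and 23668 bp at Doc1, against a median of 22164.5 bp for all protein-coding genes. One peak was counted for both Doc2 and Doc3. When only IDR peaks overlapped by a top peak of both other replicates were kept, 22, 17 and 17 of the 30 were left without replicate 1, 2 and 3, where 62.1%, 52.4% and 55.6% of all IDR peaks were kept. The svp peak was among those left only without replicate 3. The nearest annotated TSS was a heart regulator's for 10 of the 30, and the nearest protein-coding TSS for 21. The farthest summit counted lay 9306 bp from its gene (Doc1), and the nearest one left out lay 10458 bp away (H15).

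At tin (FBgn0004110, 3R:21378977-21381970, plus strand), the sole IDR peak spanned 21378550 to 21378938 and had its summit 224 bp upstream of the only annotated TSS. It ranked 324 in the IDR set, with a pooled signal of 1587, and the replicate summits ranked 309, 245 and 458 in replicates 1, 2 and 3. The replicate summits lay within 46 bp of the pooled one. The gene thus had a single strong promoter site in every replicate. It was the only 1 of the 9 heart regulators with an IDR summit within 500 bp of its own TSS. Among protein-coding genes 23.8% had one, and with 9 genes no difference can be read from these shares. Elsewhere in the tin window, the best of the remaining pooled peaks ranked 7719 and 7744, below the IDR limit.

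The Dorsocross genes lie together on 3L in the order Doc3 (FBgn0035954, 9005196-9007249, plus strand), Doc2 (FBgn0035956, 9012686-9019246, minus strand) and Doc1 (FBgn0028789, 9041375-9045042, plus strand). Most of their IDR peaks fell between genes. The 22128 bp between Doc2 and Doc1 held 8 IDR summits, all of them within 10 kb of one gene or the other. On the Doc2 side of this interval, a peak with its summit 4524 bp upstream of Doc2 ranked 618, and 474, 578 and 760 in replicates 1, 2 and 3. Its neighbour 6633 bp upstream ranked 902, with replicate ranks of 1003, 839 and 941. The next, 8984 bp upstream, ranked 959, with 908, 872 and 1074 in the replicates. These 3 sites kept within 1.60-fold of rank between replicates and were similar in strength. A weaker and narrower peak of 133 bp, 1935 bp upstream of Doc2, ranked 4972.

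On the Doc1 side of the same interval, 4 summits lay 6893 to 9306 bp upstream of Doc1, at ranks 1820, 4786, 2811 and 6285 with increasing distance. The strongest of them had replicate ranks of 1757, 2158 and 1826 and held a GATAAG match beginning 7 bp before the summit, on the minus strand. The weaker site 7624 bp upstream ranked 11585 in replicate 1 against 4815 and 3731 in replicates 2 and 3 (3.11-fold). This was the widest spread of the 29 peaks with a summit within 100 bp in every replicate. Doc1 also had the only IDR summit inside a Dorsocross gene, in an intron 1436 bp from its 5' end, which ranked 1329 and 1380, 1163 and 1635 in the replicates. A further peak just past its end, 4085 bp from the 5' end, ranked 2349, and its nearest TSS was that of Argk2, at 1979 bp.

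Between Doc3 and Doc2, which are 5436 bp apart, 1 IDR peak had its summit 754 bp past the 3' end of Doc2 and 6736 bp from the 5' end of Doc3. It ranked 703, with 893, 581 and 694 in replicates 1, 2 and 3, and its nearest TSS was that of CG5194, at 2094 bp. Doc3 had 1 other IDR peak, at rank 2589, which lay 115 bp from a TSS of smg, a gene for an RNA-binding repressor of maternal transcripts. No site could therefore be tied to Doc3 alone by position.

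**Figure D2:**
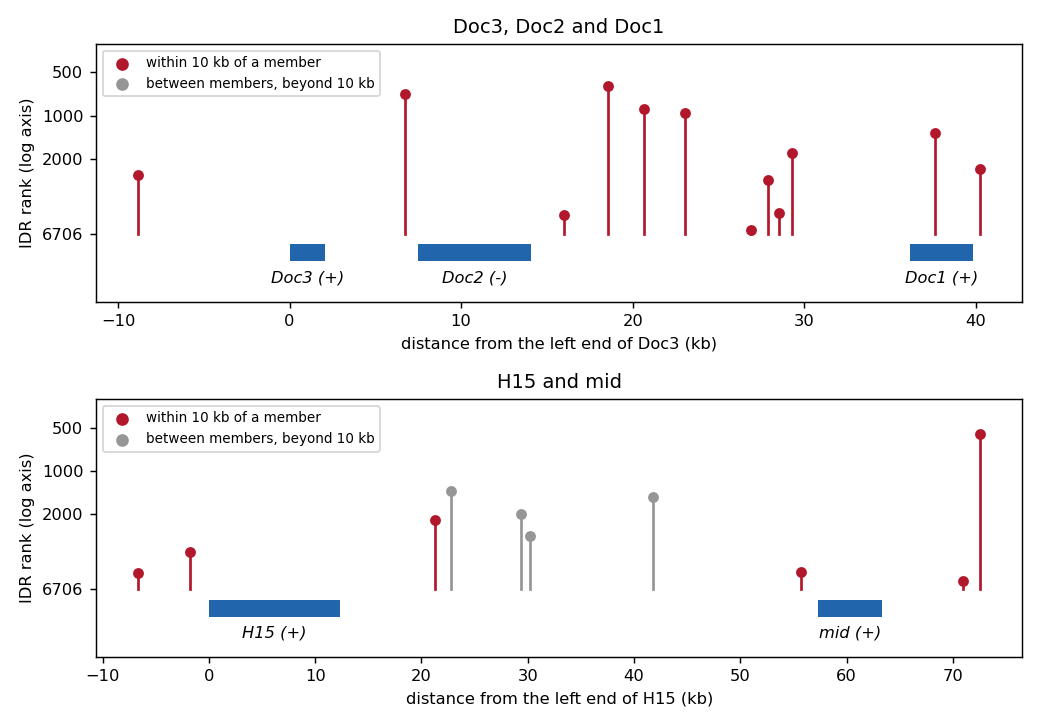
IDR summits around the Dorsocross genes (top) and around H15 and mid (bottom), by distance in kb from the left end of Doc3 or H15 and by IDR rank on a log axis with strong peaks high. Red stems are within 10 kb of a heart regulator and grey stems lie between H15 and mid beyond 10 kb. The Doc2 to Doc1 interval holds 8 stems and the H15 to mid interval holds 6, of which 4 are grey.

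The T-box pair H15 (FBgn0016660, 2L:5404280-5416593, plus strand) and mid (FBgn0261963, 2L:5461639-5467610, plus strand) is separated by 45045 bp. The best peak of mid, ranked 550, had its summit 15233 bp from the 5' end and past the 3' end of the gene, with replicate ranks of 493, 518 and 653. Its other IDR peaks were weaker, at rank 5086 (1620 bp upstream) and rank 5871 (13613 bp from the 5' end). At H15 the peak of rank 2226, beyond its 3' end, ranked 2037, 2268 and 2768 in the replicates, and those upstream ranked 3716 (1828 bp away) and 5182 (6676 bp away). Neither gene had an IDR summit in its body. The interval between the genes held 6 IDR summits, of which 4 were more than 10 kb from both and so were not counted for either. These 4 ranked 1379, 1525, 2001 and 2847, stronger than the peaks upstream of H15 and of mid. The one of rank 1379 lay 10458 bp past the end of H15 and ranked 1324, 1525 and 1417 in the replicates.

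At tup (FBgn0003896, 2L:18859507-18881261, minus strand), 7 IDR peaks were spread on both sides and inside. The strongest of all heart regulator peaks had its summit 9016 bp upstream of tup, at rank 299, and 205, 301 and 368 in replicates 1, 2 and 3. This site is intergenic, and the nearest TSS is that of lncRNA:CR44737 at 3334 bp. A GATAAG match on the plus strand begins 12 bp after its summit. Other upstream peaks ranked 3489 (8280 bp away) and 4490 (3252 bp away). Adjacent summits in a tup intron, 9340 and 9141 bp from the 5' end, ranked 1224 and 4773, and their intervals overlapped. The peaks of rank 1325 and 6353 past the 3' end lay within 500 bp of TSSs of CG10602, and the weaker one also of mRpL13, which encodes a mitochondrial ribosomal protein. The order of the tup peaks varied between replicates: the intronic site ranked 1301, 1726 and 991, and the CG10602 site 1173, 1634 and 1367, so that either came ahead of the other in some replicate.

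Hand (FBgn0032209, 2L:10292679-10295385, minus strand) had 3 IDR peaks, none of which had a Hand TSS as its nearest. The best, 4605 bp upstream, had an IDR rank of 1571. Its ranks were 1571, 1258 and 2086 in replicates 1, 2 and 3. It lay 143 bp from a TSS of CYLD, a deubiquitinase gene. Another, 2909 bp from the 5' end and just past the gene, ranked 2511 and 1612, 2761 and 3280 in the replicates, and lay 111 bp from a TSS of Ufd4, a ubiquitin ligase gene. The third, in a CYLD intron, ranked 5348 and ranged from 4089 in replicate 3 to 11859 in replicate 1. All 3 may thus be counted for a neighbour as well as for Hand.

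At svp (FBgn0003651, 3R:12258737-12302785, plus strand), the longest of the 9 genes at 44049 bp, a single weak IDR peak lay 8267 bp upstream, 3717 bp from a TSS of CG3942. It ranked 5362, with 3614 in replicate 1 and 4699 in replicate 2. Replicate 3 had no summit within 100 bp, and its nearest one, 1508 bp away, ranked 22063. The best replicate 3 summit anywhere in the svp window ranked 10324, and lay inside the gene. This was the only heart regulator peak not found in all replicates, and no IDR summit lay in the 44049 bp of the gene itself.

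**Figure D3:**
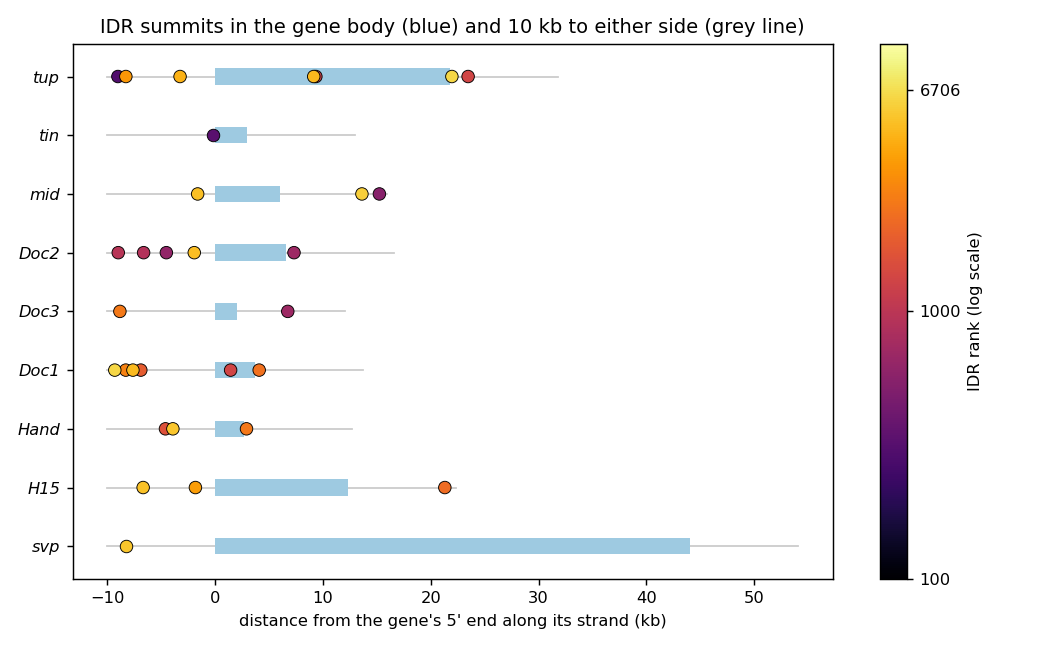
Position of each IDR summit relative to the 5' end of its gene, in kb along the gene's strand, with the gene body in blue, the 10 kb margins in grey and IDR rank as colour on a log scale. Summits lie mostly outside gene bodies, and only tin has one at its own start.

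Seen together, the heart regulator summits lay away from promoters. Of the 30, 20 (66.7%, exact 95% binomial interval 47.2 to 82.7%) were intergenic, against 21.1% of all IDR summits. Introns held 4 (13.3%, 3.76 to 30.7%) against 36.1%, and windows of 500 bp around TSSs held 6 (20%, 7.71 to 38.6%) against 40.5%. Of the 6 promoter summits, 5 were at TSSs of other genes. The summits lay 3525.5 bp (median) from the nearest TSS of any gene, against 1006.5 bp for all IDR summits. No adjustment was made for the spacing of genes, and summits of 1 locus are not independent, so the intervals cover counting error only. Of the heart regulator summits more than 500 bp from a TSS, none fell in a coding exon or UTR. The 6 promoter summits were not scored for exons or UTRs. An IDR summit lay in the gene body at 2 of the 9 (Doc1 and tup), against 13.0% of protein-coding genes. A summit of the pooled list lay within 500 bp of a TSS at 7 of the 9, against 51.6% of protein-coding genes. After that of tin, the best of these was at Doc1 (rank 10148), and H15 and Hand had none.

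**Figure D4:**
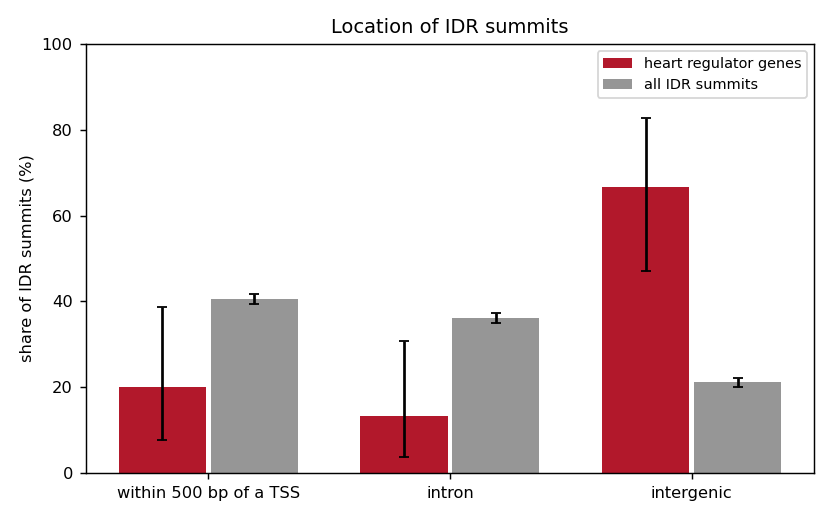
Share of IDR summits within 500 bp of a TSS, in introns and between genes, for the 30 summits of the heart regulators (red) and all 6706 (grey), with exact 95% binomial intervals. The intergenic share is 66.7% at the heart regulators and 21.1% overall.

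The replicates were compared by rank. A top-6706 summit lay within 10 kb of 9, 9 and 8 of the 9 genes in replicates 1, 2 and 3 (8.67 ± 0.577, SD, n = 3), against 69.1%, 68.2% and 69.4% of protein-coding genes. Within 1 kb, a mean of 5 of the 9 had one, against 34.9%, 34.5% and 33.9% of protein-coding genes. The median best rank of the 9 was 893, 581 and 694, against 2831, 2466 and 2716 over protein-coding genes with a summit. In each replicate this median is the rank of the peak shared by Doc2 and Doc3. A top-6706 peak of every replicate overlapped 16 of the 30 IDR peaks reciprocally by at least 50% (53.3%, exact 95% interval 34.3 to 71.7%), and the share over all IDR peaks was 46.8%. By summit position, 29 of 30 had a summit within 100 bp in every replicate list, against 89.9% of all IDR peaks, and 21 (70%) had one among the top 6706 of every replicate, against 63.3%. The ratio of the highest to the lowest replicate rank had a median of 1.44 at the heart regulators and 1.67 over all IDR peaks found in every replicate, and it was 2 or less for 26 of 29 (89.7%), against 65.7% of all IDR peaks found in every replicate. The other 3 were the Doc1 peak 7624 bp upstream, the Hand peak in the CYLD intron and the Hand peak near Ufd4, with ratios of 3.11, 2.90 and 2.03. These comparisons were not matched for rank, and the median IDR rank was 2550 for the 30 peaks against 3353.5 for all IDR peaks.

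**Figure D5:**
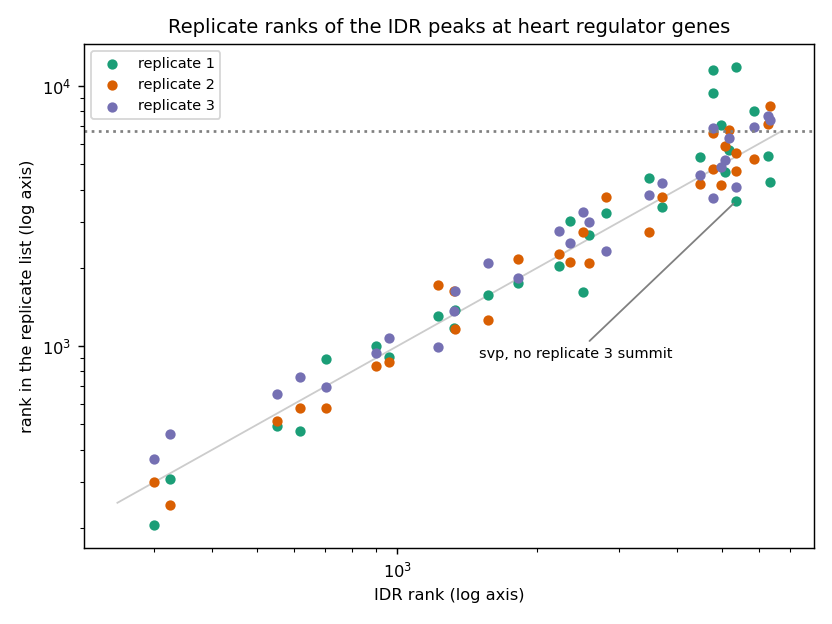
Rank in each replicate list against IDR rank for the 30 IDR peaks, both on log axes, for replicate summits within 100 bp. The grey line marks equal ranks and the dotted line the 6706th rank. Spreads of 2.03-fold or more between replicates are at IDR ranks 2511, 4786 and 5348, the widest at a Doc1 peak (3.11-fold). The svp peak, of rank 5362, has no replicate 3 point.

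The windows of 50 bp to either side of the summits had a median GC content of 28.7% (range 15.8 to 47.5%) at the heart regulators and 29.7% over all IDR summits. No window held ACAATGT, a core bound by DM-domain proteins, on either strand (0 of 30, exact 95% upper bound 11.6%), and it was rare throughout, in 1.95% of all IDR windows and 1.36% of windows of the same size centred 500 bp away. The hexamer GATAAG, read by GATA factors such as the cardiogenic factor Pannier, was present in 3 of 30 (10%, 2.11 to 26.5%) against 5.53% of all IDR windows and 4.68% of those flanking windows. Those 3 are the strongest tup site, the strongest Doc2 site and the Doc1 site 6893 bp upstream shown above. The T-box core GGTGTGA, the NK-class core TCAAGTG, the Zelda core CAGGTAG, the repeat GAGAGAG and the E-box CACATG were in none of the 30, against 0.626%, 1.52%, 0.418%, 0.626% and 3.16% of all IDR windows. Among the 60 flanking windows of the heart regulators, the NK-class core was in 5% and the DM, GATA, T-box and Zelda motifs in 1.67% each, and the others were in none. Both strands were searched, and no matches at the heart regulators overlapped. At 30 windows, a motif held by up to 11.6% of such sites could be missed.

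Other genes of heart formation were read in the same way. All 15 genes of the inductive signals (Dpp, Wingless, Hedgehog and FGF pathways) had an IDR summit within 10 kb, against 68.9% of protein-coding genes, with a median best rank of 783. The strongest were stumps, the FGF receptor adaptor (rank 78, and 141, 88 and 61 in the replicates), the Dpp-pathway zinc finger gene shn (rank 318) and the Smad gene Med (rank 340, and 287, 365 and 371). The shn summit had a partner within 100 bp in replicate 1 alone. The best summit of arm (rank 4401) had one in replicate 3 alone, and that of dpp (rank 1331) had none in replicate 2. Among 12 other heart transcription factor genes all had one, at a median of 1478.5, led by ush (rank 8, and 11, 13 and 6), a cofactor of GATA factors, the muscle regulator Mef2 (rank 41, and 61, 42 and 39) and org-1, a further T-box gene (rank 157; 126, 140 and 211). The GATA gene pnr, which encodes Pannier, ranked 2658. The best summit of eve (rank 4901) had no partner within 100 bp in replicate 3. Of 14 genes of the heart tube 13 had one, at a median of 609, led by the glypican gene dlp (rank 169, and 256, 248 and 111), the integrin gene scb (rank 220, and 432, 216 and 146) and the Slit receptor gene robo2 (rank 439, and 541, 540 and 384). The exception was prc, which encodes the pericardial matrix protein Pericardin. The peak of rank 555 was the best of both bin, a listed transcription factor gene, and Mp, a listed heart tube gene. These medians stand beside 703 for the 9 heart regulators and 1878 for all protein-coding genes with a summit. No adjustment was made for gene length or for the number of summits in a window.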

How the data were processed

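Per the file headers, meaning the descriptions deposited with each sample, the authors called peaks for every replicate and for the pool of 3, on assembly dm6 and against 1 control, and the IDR set was derived from those lists. The aligner is not given in the sources used here, nor is the peak caller. Chromatin was sonicated to 200 to 800 bp, per the labels. Each peak carries a signal value deposited by the authors, a score whose scale changes from list to list, which served to rank peaks within a list. It also carries a −log10 q deposited by the authors, used only as an alternative ranking. The summit is the peak start plus the offset in column 10. No read counts were analysed, so depth is unknown. The labels name no separate collections, and the replicate spread may be technical.

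The 9 genes, the 3 lists of other heart genes and the motifs were chosen with earlier results of these data known, so no set test was run. Genes and TSSs came from Ensembl release 115 (BDGP6.54, dm6 coordinates), without transposable elements, and sequence from RefSeq's copy of the assembly. No peak ran past an arm's end. Of 41 listed heart genes 41 matched, 1 through a synonym. The 9 genes are all named, and each list is represented by its 3 best-ranked genes. Genes named beside these (pnr, prc, arm, dpp, eve, bin, Mp) were chosen after their values were seen. Coordinates count from 1. A replicate peak matched an IDR peak at a reciprocal overlap of 50%, or, for the replicate ranks printed, as the strongest with a summit within 100 bp. Motifs were sought within 50 bp of a summit. Intervals are exact binomial (Clopper-Pearson). Alternatives changed the gene window, the assignment, the part of the IDR list, the overlap, the TSS and motif windows, the motif and the ranking column, and left out each replicate. Python 3.11.15, numpy 2.4.6, scipy 1.17.1, pandas 2.3.3 and matplotlib 3.10.9 were used, and the assignment, matching and motif steps were tested on simulated data with known answers.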

Additional observations from a re-analysis of the deposited data

How the results depend on the processing

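An IDR summit lay within 1 kb of 5 heart regulators (Doc3, mid, H15 and svp had none), against 34.3% of protein-coding genes, within 5 kb of 8, against 54.6%, and within 20 kb of 9, against 82.6%. Other settings left 6 to 9. At 1 kb, a mean of 5 of 9 genes per replicate had a top-6706 summit, against 34.9%, 34.5% and 33.9% of protein-coding genes in replicates 1, 2 and 3. Distinct IDR summits numbered 16 within 5 kb, 8 within 1 kb and 49 within 20 kb, 17 among the 3353 strongest IDR peaks, and 10 where a heart regulator had the nearest TSS (21 with protein-coding TSSs only, added after seeing the data). Leaving out each replicate gave 17 to 22. The median best rank was 1276.5 within 5 kb, 1224 within 1 kb and 2522.5 by nearest TSS, all over fewer genes (584 with protein-coding TSSs only), and 660.5 to 703 without each replicate. Ranked on the q-value it was 2818.5, since 5636 IDR peaks tie at the highest value. The share of peaks matched in every replicate was 73.3% at any overlap and 76.7% with whole replicate lists, and 96.7% by summit position with whole lists (added after seeing the data). Leaving out each replicate gave 56.7 to 73.3%. The promoter share (16.7 to 29.4%) and the absence of ACAATGT moved by less than their intervals. No paired analysis was possible because there is 1 group. The number of peaks limits every share.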

Other observations

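Below the IDR limit, the heart regulator windows held further pooled peaks. Nearest to the limit was a peak inside tup, 10108 bp from its 5' end, at pooled rank 6818 and at ranks 6957, 8183 and 7732 in replicates 1, 2 and 3, whereas the weakest tup peak inside the IDR set ranked 6353. At svp, a pooled peak 6903 bp upstream ranked 7174, with 4231 in replicate 1 and 5310 in replicate 2 and no summit within 100 bp in replicate 3, the same replicate that lacked the svp IDR peak. At tin, a peak 1589 bp upstream ranked 7744 in the pooled list and 6996, 6409 and 14242 in the replicates.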
